A study of Homo sapiens with 5 samples.

Results

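The genes described here are 10 genes of myeloid blood cells, namely receptors, signalling adaptors and transcription factors: CSF3R, CSF1R, CSF2RB, TYROBP, FCER1G, CD68, CD14, CD33, SPI1 and CEBPA. They were chosen by name with earlier results of these data known, so their counts and median are descriptions, and no test was made over them as a set. For each gene the probes that the platform annotation assigns to that gene alone were taken, and where there were several the one with the highest mean over all arrays. A probe of its own was found for 9 of the 10 genes, 1 for each, among 18417 genes tested in all; the expression of CD33 was not analysed here. In both groups cells of the human leukemia line labelled RS4.11 were grown in vitro. The titles of the treated samples call them MLL leukemia cells, a name that refers to the rearranged MLL gene. RNA on 3 arrays came from cells given SB216763, a compound that blocks the kinase GSK-3, at a dose of 10 uM during 20 h, and RNA on 2 arrays from cells given the solvent DMSO alone (control). Total RNA was hybridised to Affymetrix whole-transcript arrays. The labels do not say whether replicates were grown apart, and p-values therefore cover the spread among these arrays only, which may be technical.

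The colony-stimulating factor receptors bind the cytokines that make granulocytes and macrophages grow and mature. CSF3R and CSF2RB signal through JAK kinases, and CSF1R is itself a tyrosine kinase. TYROBP (DAP12) and FCER1G are small membrane adaptors that pair with receptors lacking a signalling tail; each carries an immunoreceptor tyrosine-based activation motif, ITAM, which recruits the kinase SYK once phosphorylated. SPI1 encodes PU.1 and CEBPA encodes C/EBP-alpha, transcription factors that drive myeloid genes, among them those of the receptors.

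All 9 measured genes were above background on all 5 arrays, where background is the 95th percentile of 341 olfactory receptor genes on each array, 5.98 to 6.19 on the log2 scale. Among all genes tested, 65.5% were above background on all 5 arrays. The RS4;11 line is known as one of B cell precursor type. Of 18 measured B cell precursor markers, 7 were above background on all 5 arrays, 3 on some and 8 on none. Those above it on none were VPREB1, RAG1, RAG2, DNTT, MME, CD22, CD24 and MS4A1, with levels between 3.19 and 5.94. PAX5, the factor that maintains B cell identity, lay between 6.55 and 6.82. That was on average 0.56 over background with SB216763 and 0.45 in control. IGLL1, of the surrogate light chain, lay between 7.80 and 8.48. Of 27 other myeloid markers, 20 were above background on all 5 arrays, among them lysozyme (LYZ), at 11.86 to 12.78, and the granule protease PRTN3, at 11.46 to 11.85, while the granule peroxidase MPO lay between 6.10 and 6.53, close to background. The 7 above background on no array were MNDA, CD86, S100A12, CD93, CX3CR1, VCAN and CYBB. The marker genes given here as examples were picked with their levels known, and no test of cell identity was made.

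**Figure D1:**
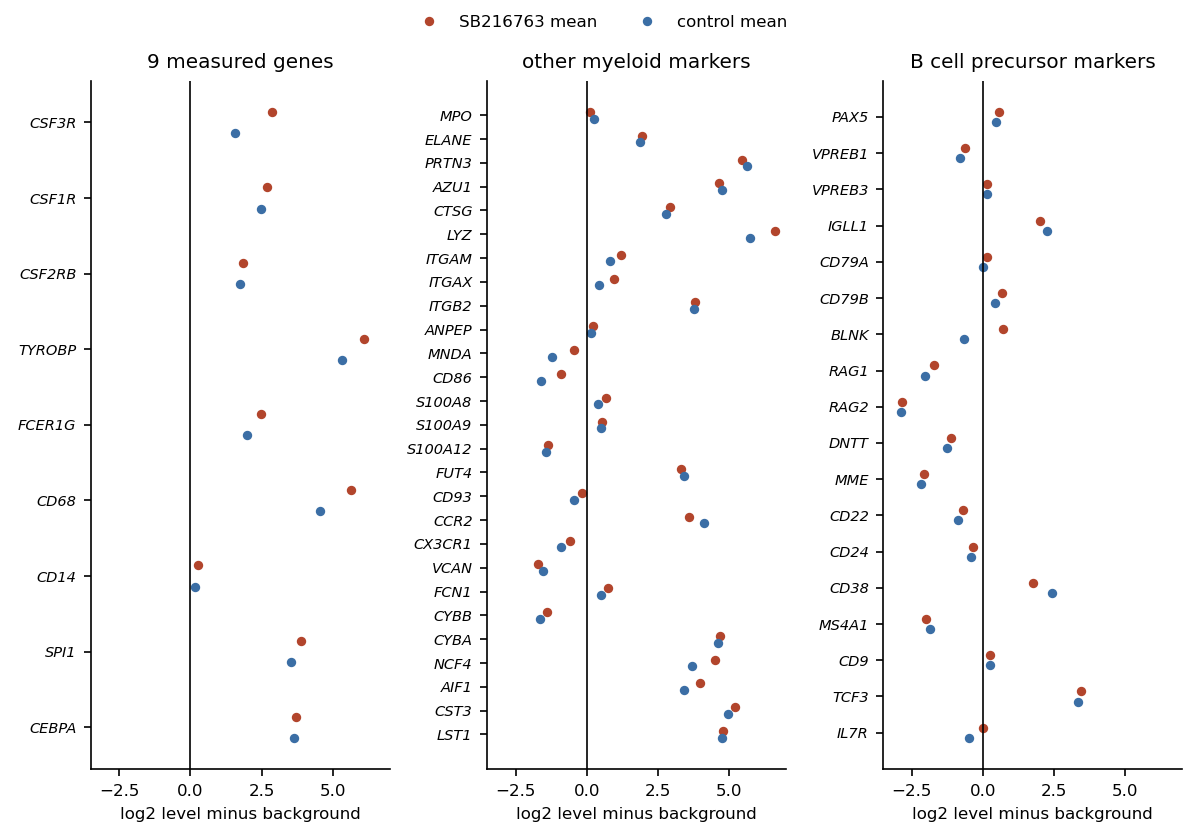
Mean log2 level minus array background for the 9 measured genes, the other myeloid markers and the B cell precursor markers, with SB216763 means drawn just above control means for each gene. Background is the vertical line at 0. All 9 genes lie right of the line, while 8 of the 18 B cell precursor markers were under background on every array.

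With SB216763, the receptor gene CSF3R, the macrophage glycoprotein gene CD68 and the adaptor gene TYROBP rose, by 1.23, 1.00 and 0.70 on the log2 scale. The other 6 genes did not pass the test, which was limma with adjusted p-values (Benjamini-Hochberg, all 18417 genes) and a threshold of 0.05. Thus 3 of 9 passed as higher (called higher) and 0 lower. Among all genes 7.21% were called higher and 5.92% lower, 13.1% in both directions. With only genes above background on at least 2 arrays kept, 1685 of 12856 were called higher and 1398 lower, 24% in both directions. The same 3 of the 9 were called higher in that fit. At an unadjusted p under 0.05, 5 of the 9 were higher and 0 lower, against 14.3% of all genes higher and 26.5% in either direction. The median difference of the 9 was 0.24, and that of all genes 0.00. In these bulk samples a changed share of cells of 1 type and changed RNA per cell cannot be told apart.

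**Figure D2:**
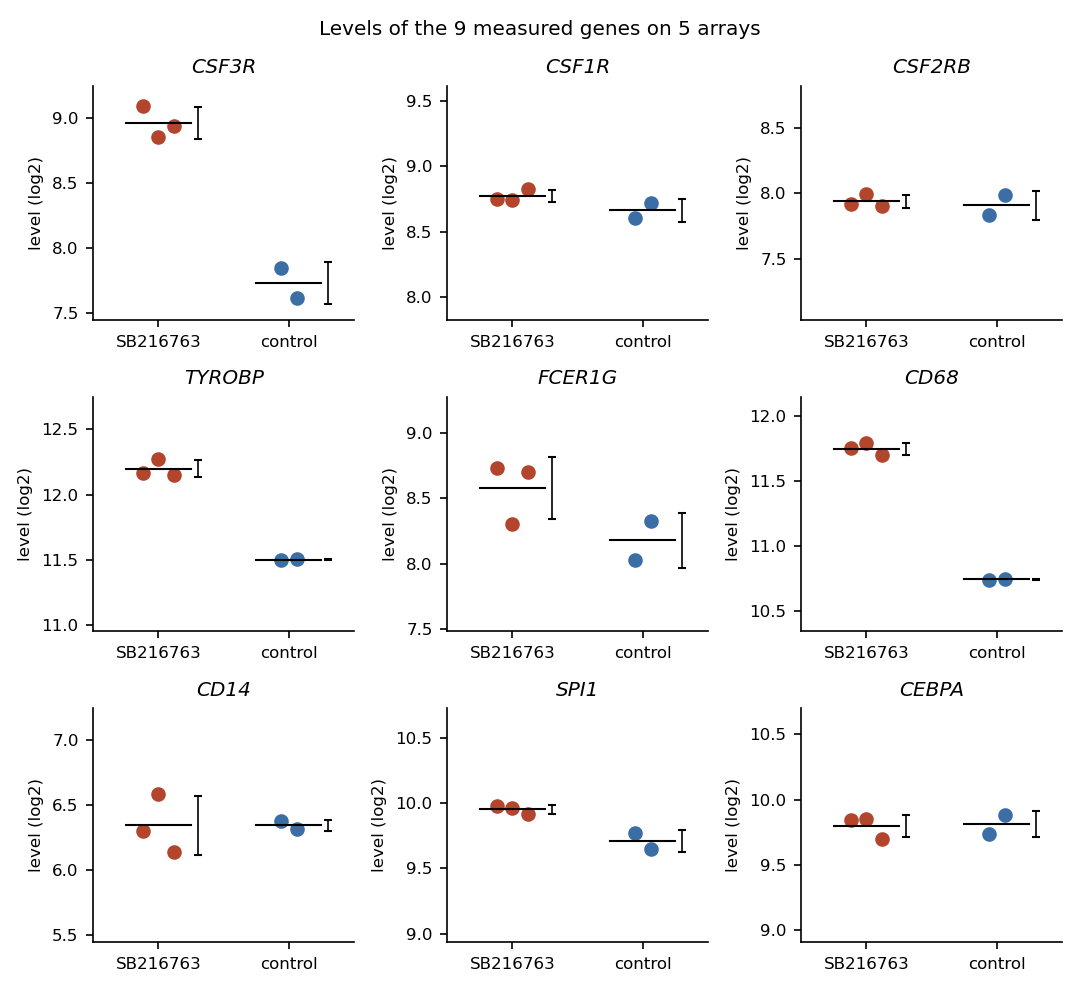
Log2 level of each measured gene on every array (points), with the group mean (line) and SD (bar), for 3 SB216763 arrays and 2 control arrays; every panel spans the same height. CSF3R, TYROBP and CD68 show a gap between groups that is wide beside the spread within each group.

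Of the cytokine receptor genes CSF1R, CSF2RB and CSF3R, only CSF3R, the receptor for granulocyte colony-stimulating factor, passed the test. Its level was 9.09, 8.85 and 8.94 on the SB216763 arrays, against 7.85 and 7.62 on the control arrays. Every SB216763 array lay more than 1 log2 unit above the higher control array. The difference was 1.23 (SE 0.11, 95% interval 0.98 to 1.48, adjusted p = 0.000843), a 2.34-fold rise, and it ranked 29 among the 1328 genes called higher. The call was lost without control replicate 1 (adjusted p = 0.0572), without control replicate 2 (0.0604) and in an ordinary linear model without moderation (0.0668).

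CSF1R, the receptor for the macrophage growth factors CSF1 and IL34, had levels of 8.75, 8.74 and 8.82 with SB216763, against 8.60 and 8.72 in control. The groups did not overlap, but the nearest arrays were only hundredths of a unit apart. The difference was 0.11 (SE 0.08, 95% interval -0.08 to 0.30, adjusted p = 0.456). CSF2RB, the common beta chain shared by the receptors for GM-CSF, IL-3 and IL-5, had 7.92, 7.998 and 7.91 with SB216763, against 7.83 and 7.99 in control. These groups overlapped, and the difference was 0.03 (SE 0.09, 95% interval -0.17 to 0.23, adjusted p = 0.879). The intervals of both genes end far below the change of CSF3R, but a difference between the genes' responses was not tested.

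Of the 2 ITAM adaptors, TYROBP passed the test and FCER1G did not. TYROBP, the partner of receptors such as TREM1 and TREM2, had 12.17, 12.27 and 12.15 on the SB216763 arrays, against 11.50 and 11.51 on the control arrays. The control arrays agreed within 0.01, and all SB216763 arrays were above them. The difference was 0.70 (SE 0.08, 95% interval 0.51 to 0.88, adjusted p = 0.00227), or 1.62-fold, ranking 274 among the genes called higher. The adjusted p was 0.0729 without control replicate 1, 0.0668 without control replicate 2 and 0.0508 without moderation.

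FCER1G, the common gamma chain of Fc receptors, had 8.73, 8.30 and 8.70 with SB216763, against 8.03 and 8.32 in control. SB216763 replicate 2 lay just below control replicate 2, so the groups overlapped. The difference was 0.40 (SE 0.15, 95% interval 0.05 to 0.75, adjusted p = 0.134), with the widest standard error of the 9 genes. It turned on single arrays: without SB216763 replicate 2 the difference was 0.54 (adjusted p = 0.0300), and without control replicate 1 it was 0.26 (adjusted p = 0.601). With array weights it passed as well, at 0.54 (adjusted p = 0.00896).

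CD68, a glycoprotein of late endosomes and lysosomes in macrophages, rose 2.00-fold. Its level was 11.75, 11.79 and 11.70 with SB216763, against 10.74 and 10.74 in control. The 3 SB216763 arrays spanned less than 0.1, and the control arrays were equal to 2 decimals. The difference was 1.00 (SE 0.08, 95% interval 0.82 to 1.18, adjusted p = 0.000588), and CD68 had the smallest p of the 9 genes. It lost its call without control replicate 1 (adjusted p = 0.0572) and without control replicate 2 (0.0557), while its difference ran from 0.98 to 1.02 over the fits that left out 1 array.

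CD14, the monocyte co-receptor for bacterial lipopolysaccharide, was the dimmest of the 9 relative to background. It had 6.30, 6.59 and 6.14 with SB216763, against 6.38 and 6.32 in control. The SB216763 arrays lay on both sides of the control arrays. The difference was -0.00 (SE 0.13, 95% interval -0.30 to 0.30, adjusted p = 0.992).

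Neither transcription factor gene passed. SPI1 had 9.98, 9.96 and 9.92 with SB216763, against 9.77 and 9.65 in control. All SB216763 arrays were above both control arrays, by a small margin. The difference was 0.24 (SE 0.08, 95% interval 0.06 to 0.43, unadjusted p = 0.0176, adjusted p = 0.0941). It passed with a variance trend and robust settings (adjusted p = 0.0383) and with array weights (0.0209). CEBPA had 9.84, 9.85 and 9.70 with SB216763, against 9.74 and 9.88 in control. The groups overlapped, and the difference was -0.01 (SE 0.09, 95% interval -0.22 to 0.20, adjusted p = 0.956).

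**Figure D3:**
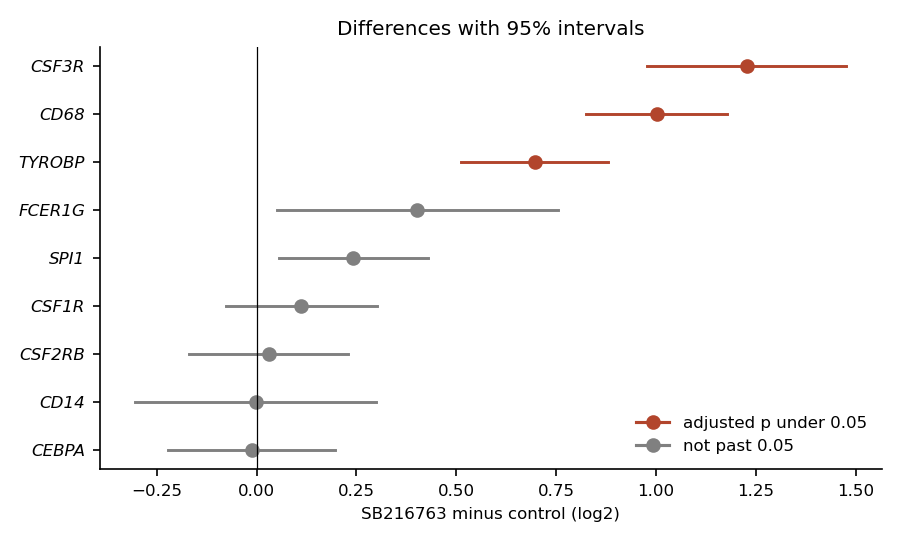
SB216763 minus control difference (log2) of each measured gene with its 95% interval from limma; coloured points have an adjusted p under 0.05. The intervals of CSF3R, CD68 and TYROBP start at 0.98, 0.82 and 0.51, and those of FCER1G and SPI1 start just above 0 without an adjusted call.

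The groups did not overlap for 5 of the 9 genes, CSF3R, CD68, TYROBP, SPI1 and CSF1R, all higher with SB216763; among all genes this held for 41.4%, and for 21.6% in the higher direction. Both control arrays were needed for the calls. A fit with a lone control array has no spread within control to measure. Without control replicate 1 the differences of CSF3R, CD68 and TYROBP were 1.34, 1.00 and 0.69. Without control replicate 2 they were 1.11, 1.00 and 0.70. Without SB216763 replicate 1, 2 or 3 the number of the 9 called higher was 3, 4 and 3. Of all 18417 genes, 540, 1680 and 808 were called higher in these fits, and 5.39%, 15.5% and 8.72% in either direction. With any 1 array left out, the log2 difference of CSF3R ran from 1.11 to 1.34 and that of TYROBP from 0.66 to 0.72.

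**Figure D4:**
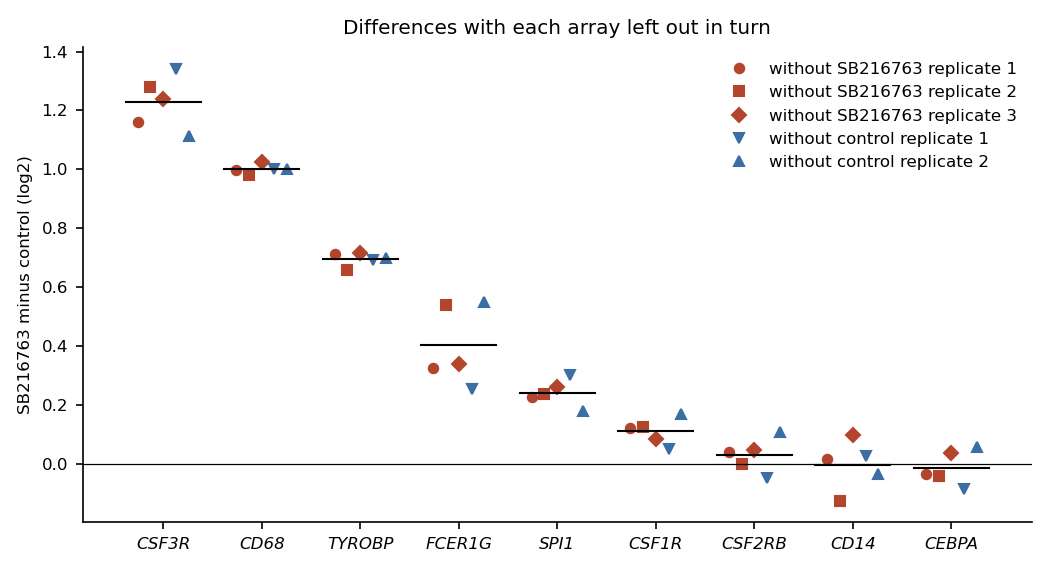
SB216763 minus control difference (log2) of each measured gene with each of the 5 arrays left out in turn (symbols) and with all arrays (line). CSF3R, CD68 and TYROBP stay above 0.6 throughout, FCER1G runs from 0.26 to 0.55, and CSF2RB, CD14 and CEBPA fall on both sides of 0.

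The promoters of the genes that rose are shown because SPI1 and CEBPA encode factors that bind such regions. RefSeq promoter sequences of build GRCh38.p14, 250 bases before to 50 bases after the gene start, matched 8 of the 10 genes, all but CSF2RB and SPI1. Capitals mark the letters GAGGAA, a core of PU.1 sites, and TTNNGNAA, a loose form of the C/EBP site, each searched on both strands; no 2 matches overlapped. The sequences lie at chr1:36483265-36483564 (minus strand) for CSF3R, chr17:7579388-7579687 (plus) for CD68, chr19:35908246-35908545 (minus) for TYROBP and chr5:140633126-140633425 (minus) for CD14, which holds both motifs and did not pass the test.
CSF3R: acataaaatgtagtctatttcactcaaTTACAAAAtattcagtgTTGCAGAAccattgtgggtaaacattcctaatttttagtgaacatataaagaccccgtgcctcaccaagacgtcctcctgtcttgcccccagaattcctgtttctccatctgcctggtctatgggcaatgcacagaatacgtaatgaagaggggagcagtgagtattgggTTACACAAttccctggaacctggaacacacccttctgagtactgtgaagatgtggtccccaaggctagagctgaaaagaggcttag
CD68: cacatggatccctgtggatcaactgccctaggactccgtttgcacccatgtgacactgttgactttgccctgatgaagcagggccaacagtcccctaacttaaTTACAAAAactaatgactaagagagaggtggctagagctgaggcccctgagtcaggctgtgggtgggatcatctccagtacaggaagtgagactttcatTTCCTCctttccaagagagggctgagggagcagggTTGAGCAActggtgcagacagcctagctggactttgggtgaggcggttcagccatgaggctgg
TYROBP: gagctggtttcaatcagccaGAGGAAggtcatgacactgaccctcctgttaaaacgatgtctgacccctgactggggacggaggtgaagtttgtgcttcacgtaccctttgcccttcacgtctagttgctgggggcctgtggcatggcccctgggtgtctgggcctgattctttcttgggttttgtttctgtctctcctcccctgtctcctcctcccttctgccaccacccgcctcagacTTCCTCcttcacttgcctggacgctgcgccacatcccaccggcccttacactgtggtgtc
CD14: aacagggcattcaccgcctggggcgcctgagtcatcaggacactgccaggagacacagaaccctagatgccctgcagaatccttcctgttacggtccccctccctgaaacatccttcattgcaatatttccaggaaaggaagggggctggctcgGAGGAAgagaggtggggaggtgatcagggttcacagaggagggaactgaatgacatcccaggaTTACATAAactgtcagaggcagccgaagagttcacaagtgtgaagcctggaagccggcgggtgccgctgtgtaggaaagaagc

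The CSF3R window held 3 matches to the C/EBP letters and 0 to the PU.1 letters. TYROBP held 2 matches to the PU.1 letters and 0 to the C/EBP letters. CD68 held 1 match to PU.1 and 2 to C/EBP letters, and CD14 held 1 of each. CD33 held 3 matches to the PU.1 letters and 0 to the C/EBP letters. Of the 8 promoters, 4 held the PU.1 letters and 3 the C/EBP letters, where 27.6% and 37.2% of 27305 promoters of the same length did. CSF1R, FCER1G and CEBPA had 0 matches to either in the 1 window searched for each. Other starts of a gene, and sites outside its window, were not searched. A match is a description of the letters, not of binding.

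The genes around these receptors were described from 13 lists of partners, effectors and markers, with 237 distinct measured genes. Of these, 33 rose (13.9%) and 12 fell (5.06%), beside 7.21% and 5.92% of all genes. The counts of each list below stand against these same shares of all genes. With the filter on dim genes, 37 of the listed genes were called higher and 14 lower, beside 24% of all kept genes in both directions. Without control replicate 1, and likewise without control replicate 2, limma called 0 of these genes in either direction; without SB216763 replicate 1 it called 21 higher and 7 lower (5.39% of all genes in both directions), and without moderation 5 higher and 3 lower (1.36%). Of 12 measured colony-stimulating factors and partner receptors, 1 fell, 0 rose and 11 stayed uncalled, with a median difference of -0.09. The gene that fell was IL3RA, the IL-3 receptor alpha chain that pairs with CSF2RB, at 7.49 ± 0.10 (SD, n = 3) with SB216763 and 8.92 ± 0.11 (SD, n = 2) in control, a difference of -1.43 (SE 0.09, adjusted p = 0.000457). Its partner chain CSF2RB differed by 0.03, as given above. KIT, the stem cell factor receptor, differed by -0.10 (SE 0.08), CSF1 by -0.20 (SE 0.10) and IL5 by -0.12 (SE 0.09), and none of them passed; IL5 was above background on no array.

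Of 17 measured genes of JAK, STAT and SOCS signalling, 5 rose, 0 fell and 12 were not called, and the list's median was 0.16. TYK2, a JAK family kinase, rose by 0.45 (SE 0.08), the transcription factors STAT3 and STAT5A by 0.39 (SE 0.08) and 0.38 (SE 0.07), and the ubiquitin ligase CBLB by 0.43 (SE 0.08). CBL, which ends receptor signalling, rose by 0.33 (SE 0.08) and was named with its value known. STAT3 and STAT5A act downstream of CSF3R and CSF2RB.

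Of 24 measured receptors that pair with TYROBP, FCER1G or related adaptors, 2 rose, 0 fell and 22 were not called, and the list's median was 0.03. OSCAR, a collagen receptor that pairs with FCER1G, was at 7.87 ± 0.07 (SD, n = 3) with SB216763 and 7.27 ± 0.06 (SD, n = 2) in control, a rise of 0.60 (SE 0.08, adjusted p = 0.00432). TREM2, a lipid-binding receptor of macrophages that pairs with TYROBP, rose by 0.43 (SE 0.08, adjusted p = 0.0157). SIGLEC14 differed by 0.42 (SE 0.13, adjusted p = 0.0820) and FCER1A, which was above background on no array, by 0.30 (SE 0.09). Of these 24 receptors, 12 were above background on all arrays and 11 on none.

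Of 9 measured other ITAM and related adaptors, 1 rose, 0 fell and 8 were not called. FCGR2A, an Fc receptor with an ITAM of its own, rose by 0.65 (SE 0.10, adjusted p = 0.00725); it has close paralogs, so the copy measured is uncertain. HCST (DAP10), the adaptor encoded next to TYROBP, differed by 0.29 (SE 0.08, adjusted p = 0.0548). Of 23 measured kinases and effectors downstream of ITAMs, 3 rose, 2 fell and 18 were not called, and the list's median was -0.00. LYN, a SRC family kinase that phosphorylates ITAMs, rose by 0.53 (SE 0.08), and VAV1, an exchange factor for RAC, by 0.54 (SE 0.09). BLNK, a scaffold best known in B cells, rose at least 1.53-fold, as both control arrays had it below background. LAT2, a membrane adaptor, fell by 0.55 (SE 0.08), and PLCG1, a phospholipase named after its value was seen, fell by 0.37 (SE 0.09).

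CD33 belongs to the Siglecs, sialic acid receptors that mostly carry inhibitory motifs, ITIMs. Of 26 measured Siglecs, ITIM receptors and their phosphatases, 8 rose, 0 fell and 18 were not called, and the list's median was 0.05. SIGLEC6 was at 9.47 ± 0.07 (SD, n = 3) with SB216763 and 8.20 ± 0.08 (SD, n = 2) in control, a rise of 1.28 (SE 0.08, adjusted p = 0.000457). CD300LF, an inhibitory lipid receptor, rose by 0.74 (SE 0.08), SIGLEC10 by 0.71 (SE 0.08) and SIGLEC1, the macrophage sialoadhesin, by 0.59 (SE 0.08). The others were SIGLEC5, PECAM1, PILRA and INPPL1, at 0.54, 0.60, 0.66 and 0.34, named after their values were seen. Some Siglec genes have near-identical copies, so the copy measured is uncertain for SIGLEC5 and SIGLEC14.

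Around CD14, 19 Toll-like receptor genes and partners were measured, of which 2 rose, 2 fell and 15 were not called, and the list's median was 0.08. LY86 (MD-1), the secreted partner of CD180, rose by 1.31 (SE 0.10, adjusted p = 0.000601), while CD180 itself fell by 0.78 (SE 0.09, adjusted p = 0.00206). TLR2, a lipoprotein receptor that CD14 assists, fell by 0.91 (SE 0.11, adjusted p = 0.00314). TLR6 rose at least 1.04-fold; it was above background on 2 of the 3 SB216763 arrays and on 0 control arrays.

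CD68 is related to the lysosomal membrane proteins LAMP1 and LAMP2 and is counted among the scavenger receptors. Of 15 measured LAMP and scavenger receptor genes, 3 rose, 1 fell and 11 were not called, and the list's median was 0.01. SCARB2, a lysosomal membrane protein, rose by 0.96 (SE 0.09), LAMP1 by 0.74 (SE 0.09) and CD36, a fatty acid and lipoprotein receptor, by 1.07 (SE 0.14). MSR1 was called lower, at -0.40 (SE 0.10), but was above background on no array.

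Of 34 measured other myeloid and partner transcription factors, 3 rose, 4 fell and 27 were not called, and the list's median was -0.05. EGR1, an immediate early factor, fell by 0.94 (SE 0.09), and the interferon regulatory factors IRF4 and IRF1 fell by 0.42 (SE 0.07) and 0.43 (SE 0.08). JUN rose at least 1.31-fold, being below background in both control samples. KLF4 and FLI1 rose, by 0.56 and 0.33, and TRIB1, which promotes degradation of C/EBP-alpha, fell by 0.46; these 3 were named after their values were seen.

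Markers of myeloid cells and of other cell types were described beside these genes. Of the 27 other myeloid markers, LYZ, NCF4, AIF1, MNDA and CD86 were called higher and the chemokine receptor CCR2 fell by 0.64 (SE 0.09); AIF1 and CD86 were named after their values were seen, and MNDA and CD86 were above background on no array. Another 21 were not called, and the list's median difference was 0.04. LYZ rose by 0.78 (SE 0.09) and NCF4, of the phagocyte oxidase, by 0.73 (SE 0.09). The median level of this list ran from 7.11 to 7.42 on the SB216763 arrays and from 6.97 to 7.06 on the control arrays. Of the 18 B cell precursor markers BLNK was called higher and CD38 fell by 0.74, and the list's median level ran from 6.08 to 6.20 with SB216763 and from 5.69 to 5.75 in control; the median of its differences was 0.00. Of 11 T and NK cell markers NKG7 rose, by 0.88, and 4 were above background on all arrays; their median level ran from 5.57 to 5.78 with SB216763 and from 5.62 to 5.87 in control. Of 10 erythroid and megakaryocyte markers 0 were called by limma and 0 had an unadjusted p under 0.05. The part of other cell types in the changes of CSF3R, CD68 and TYROBP was not tested.

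**Figure D5:**
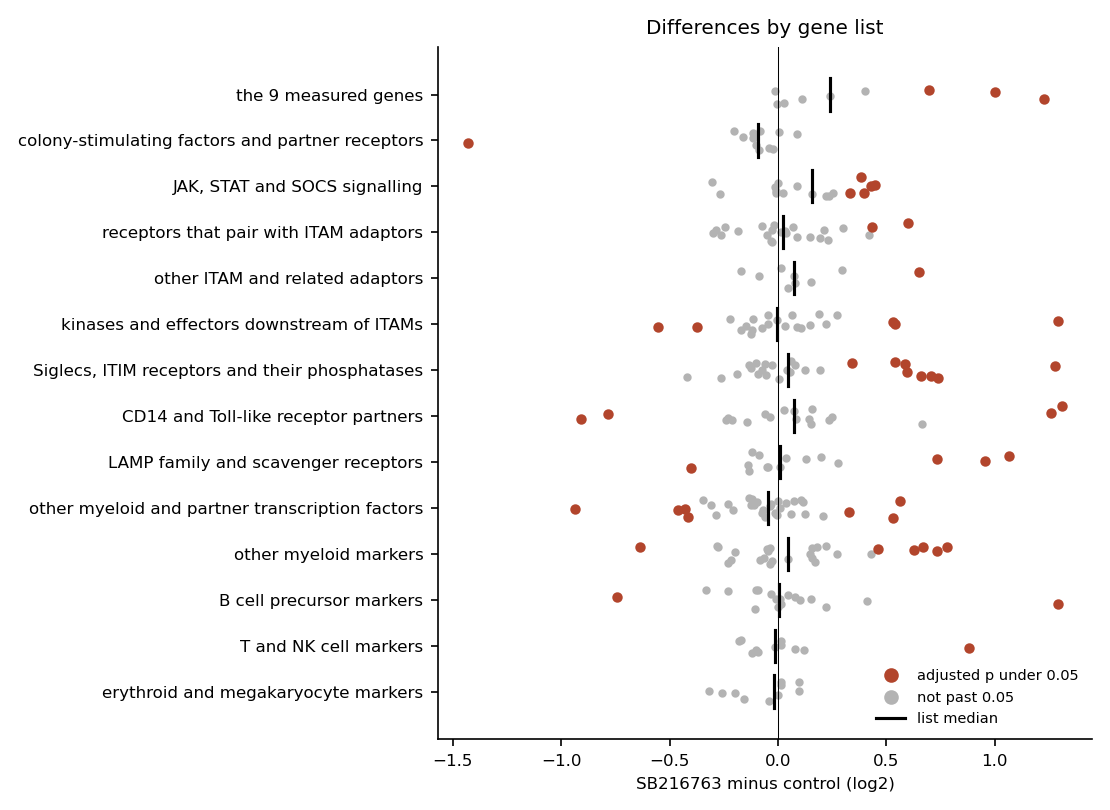
SB216763 minus control difference (log2) of every measured gene of the 9 described here and of 13 further lists; coloured points have an adjusted p under 0.05 and black lines are list medians. IL3RA lies far left at -1.43, and the medians lie between -0.09 and 0.24.

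The genes whose values ran closest to those of the called genes were found by the root mean square distance over the 5 arrays, after subtracting each gene's own mean. Closest to CD68 were ABCA7, RNU105C and ZNF581, at 0.04 log2 units each. Closest to CSF3R were BLNK, GPR141 and ZNF366, at 0.06 to 0.08. Closest to TYROBP were FLVCR2, SLC1A3 and SEZ6L2, at 0.02 to 0.03. A group difference of like size follows from how these genes were chosen. BLNK, GPR141 and SLC1A3 were below background in both control samples.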

How the data were processed

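Total RNA of 5 samples labelled RS4.11 was measured on whole-transcript arrays. The deposited table holds log2 expression values made by the authors with Affymetrix Expression Console, per the submitters' processing notes; the scale was read from the values, 1.95 to 14.84. For that step no version, summarisation or genome build is given in the sources used here. Array medians lay between 6.77 and 6.84, and nothing was normalized further.

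Of 33297 probes, 19460 named exactly 1 gene, 1754 several, and 12083 are unnamed here; 19429 had their Entrez identifier in RefSeq (GRCh38.p14), and 0 symbols differed. This left 18417 genes. The test was that of limma (lmFit and eBayes, version 3.58.1, R 4.3.3), two-sided, with 4.62 prior and 7.62 total degrees of freedom. A gene below background on every array of 1 group has only a bound ("at least"): the mean of the brighter group set against the other group's mean, with each array of the other group raised to background where it lay under it. The number of arrays limits the precision. The procedure was tested on simulated data with noise independent between genes and arrays. That test does not cover effects shared by the genes of an array. Tables and figures used pandas 2.3.3 and matplotlib 3.10.9.

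The genes and lists were chosen with earlier results of these data known. Named were all 10 genes, up to 4 genes with the smallest p per list, and the 3 nearest genes of the 3 genes with the smallest p; further list genes and the markers set against background were named after their values were seen. Same-numbered arrays were not treated as pairs. Listed genes that no probe names alone were not analysed here. Alternatives were a filter on dim genes, other normalizations, probes, variance models, array weights, a replicate block and each array left out.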

Additional observations from a re-analysis of the deposited data

How the results depend on the processing

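The count of called genes, 2418, was 251 by an ordinary linear model without moderation and 4720 with array weights, and ran from 0 to 2859 with 1 array left out (1 and 0 without control replicates 1 and 2, 993 and 1606 without SB216763 replicates 1 and 3). Of the 9 genes, 3 were called higher as reported, 1 without moderation and 5 with array weights. The shares of all genes called in either direction were 13.1%, 1.36% and 25.6%. Without SB216763 replicate 1, 2 or 3 the number was 3, 4 and 3, beside 5.39%, 15.5% and 8.72% of all genes. Fits that left out a control array are described with the called genes above. Of the 9 genes, 0 were called lower in every setting that kept both control arrays. Their median difference, 0.24, was 0.21 with each array centred on its median, 0.26 with array weights and with the replicate block, and 0.18 to 0.26 with 1 array left out. The direction of the genes near 0 turned. CSF2RB differed by -0.021 after quantile normalization, -0.0056 with arrays centred, and -0.049 (without control replicate 1) to 0.11 with 1 array left out. CEBPA differed by 0.022 with array weights, 0.036 with the replicate block, and -0.083 to 0.059 with 1 array left out. CD14 differed by 0.10 with the replicate block and -0.12 to 0.10 with 1 array left out. The cause of these shifts was not tested. With the replicate number as a block limma called 1830 genes, and CSF3R, CD68 and TYROBP stayed called. SB216763 replicate 3 has no control of the same number, so the block took it out of the differences. To 2 decimals they equalled those without that array, 1.24 for CSF3R and 1.02 for CD68. The block is thus no separate check, and its calls lean on variance borrowed across genes. Deviations of same-numbered arrays from their group means correlated with r of -0.05 and -0.10. With 2 control arrays the deviations of 1 mirror those of the other, so these values cannot show whether arrays were paired. The numbers were not read as pairs. A lone control array is assumed to vary like the SB216763 arrays. With a stricter percentile of the olfactory receptor genes as background, 8 of the 9 genes were above it on all arrays.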
